A study of Rattus norvegicus with 9 samples.

Results

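The nuclear tRNA genes for glycine and glutamate were taken from a count table of small RNAs in the rat striatum, the input nucleus of the basal ganglia. A gene belonged to the set if its entry name gave a nuclear chromosome and the amino acid Gly or Glu. The rule itself uses no measured value, though it was set with earlier results of these data known. The rule found 43 genes among the 1759 entries of the table and among 408 nuclear tRNA genes. Glycine had 25 genes in 3 anticodon families, with 11 for GCC, 5 for CCC and 9 for TCC. Glutamate had 18 genes in 2 families, with 8 for CTC and 10 for TTC.

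The study dosed rats by mouth and compared 3 groups, each with 3 libraries. Control rats received corn oil at 1 ml/kg, the vehicle of the MMT group. The MMT group received methylcyclopentadienyl manganese tricarbonyl, an organic manganese compound used as a fuel additive, in corn oil at 4 mg/kg, which the study puts at about 1 mg Mn/kg. The third group received manganese chloride tetrahydrate (MnCl2), the study's positive control, at 200 mg/kg in physiological saline at 10 ml/kg. MnCl2 and its vehicle therefore cannot be told apart when this group is compared with control. In MMT against MnCl2, compound, dose and vehicle likewise cannot be told apart. Per the series description, the 18 rats of the study were 8 weeks old and of both sexes, with 3 of each sex per group, and the stated schedule was 6 days a week for 8 weeks. No strain, genetic change or transgene is given. The labels name neither the sex of the animals in a library nor whether animals were pooled. The p-values therefore describe the spread among these 9 libraries, some of which may be technical.

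A tRNA carries an amino acid to the ribosome and reads a codon through its anticodon. In mammals the same mature tRNA is made from many gene copies, and enzymes add the bases CCA to its 3′ end after transcription. Ribonucleases such as angiogenin cut tRNAs in or near the anticodon loop under stress, and the resulting 5′ pieces of glycine and glutamate tRNAs are among the commonest tRNA fragments in mammalian small RNA libraries. The RNA sequenced here was a gel band of 15 to 45 nucleotides, while the entries are 74 to 80 bases long, so a count stands for a fragment placed on a gene and not for a whole tRNA.

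The 43 genes came down to 19 distinct sequences, called types below and numbered within an anticodon by their total count. The types below are those on which the results turn, as deposited with their CCA tail, 5′ to 3′, with the anticodon in capitals. The first lines show the 3 related Gly-GCC sequences and the Gly-CCC sequences.
Gly-GCC type 1: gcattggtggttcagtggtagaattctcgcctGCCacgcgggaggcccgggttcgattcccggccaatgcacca
Gly-GCC type 2: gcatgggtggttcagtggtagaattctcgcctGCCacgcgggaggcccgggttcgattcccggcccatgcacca
Gly-GCC type 3: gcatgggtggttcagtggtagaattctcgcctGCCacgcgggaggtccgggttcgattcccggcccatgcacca
Gly-CCC type 1: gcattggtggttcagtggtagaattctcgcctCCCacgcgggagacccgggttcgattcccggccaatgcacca
Gly-CCC type 4: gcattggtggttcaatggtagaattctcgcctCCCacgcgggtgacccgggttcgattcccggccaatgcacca
Gly-CCC type 2: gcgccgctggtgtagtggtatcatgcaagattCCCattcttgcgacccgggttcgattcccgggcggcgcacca
Substitutions below are counted from base 1 at the 5′ end, with the first-named type's base before the number. Gly-GCC type 1 and type 2 differ by T5G and A66C, and type 2 differs from type 3 by C46T. Gly-GCC type 1 and Gly-CCC type 1 differ by G33C and G45A, which leaves their first 32 bases identical. Gly-CCC type 1 and type 4 differ by G15A and A43T. Gly-CCC type 2 differs from Gly-CCC type 1 at 22 bases.

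The commonest Gly-TCC sequence and the 3 related Glu-TTC sequences are shown next, because small differences between them were set against their counts.
Gly-TCC type 1: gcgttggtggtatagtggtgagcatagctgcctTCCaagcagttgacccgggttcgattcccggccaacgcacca
Glu-TTC type 1: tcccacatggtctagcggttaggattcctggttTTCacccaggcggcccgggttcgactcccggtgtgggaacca
Glu-TTC type 4: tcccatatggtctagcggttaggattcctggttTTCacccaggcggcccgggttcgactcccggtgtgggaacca
Glu-TTC type 2: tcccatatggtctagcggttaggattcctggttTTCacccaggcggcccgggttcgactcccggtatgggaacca
Glu-TTC type 1 and type 4 differ by C6T, and Glu-TTC type 4 and type 2 by G66A.

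All 43 sequences ended in CCA and were 3 bases longer than the genomic span in their entry names. The genes lay on 13 chromosomes of the rn6 build. On chromosome 13, 7 genes lay between 94043640 and 94096879 (3 Gly-TCC, 2 Gly-GCC and 2 Glu-CTC) and 4 between 95722306 and 95755523 (2 Gly-GCC and 2 Gly-TCC). On chromosome 2, 9 genes lay between 217947735 and 218125912 (3 Gly-CCC, 2 Gly-TCC, 2 Glu-CTC and 2 Glu-TTC). Within these clusters Gly-TCC and Glu-CTC genes sat side by side on the same strand, 324 bases apart in 2 pairs on chromosome 2 and 260 and 422 bases apart on chromosome 13. The other 23 genes lay outside these clusters.

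Library totals lay between 583045 (control 3) and 2012769 (control 1). The 43 genes held between 7.54% (control 1) and 11.3% (MMT 2) of all counts of a library, and between 23.2% and 28.6% of its nuclear tRNA counts. Each of the 43 genes had at least 13 counts in every library and passed the filter on low counts, with 1113 of 1759 entries. Counts were scaled by TMM (edgeR's scaling factor) to CPM, counts relative to a fixed total of all counts. None of the 9 lists of cell type marker miRNAs, and none of their markers, was at 0 in every library. The summed neuron markers lay between 46409 (control 3) and 63496 CPM (control 1), with similar ranges in the 3 groups. Choroid plexus markers varied within groups, from 301 CPM (MnCl2 2) to 2587 CPM (MMT 3), and vascular markers reached 27872 CPM in MnCl2 1, beside at most 18253 CPM in the other libraries. Red blood cell markers reached 127 CPM in MnCl2 1, beside at most 74.5 CPM in the other libraries. The 2 muscle markers summed to 14.7 to 18.3 CPM in control, 19.9 to 23.8 CPM in MMT and 23.1 to 99.7 CPM (MnCl2 2) in MnCl2. Both treated groups thus lay above control, at low levels. Of single entries, 1.8% (MMT) and 4.76% (MnCl2) lay wholly above control, and nothing is read from the separation of this list. The part of these markers in the levels below was not tested. In a bulk sample, fewer cells of a type and less RNA per cell cannot be told apart.

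The anticodon families differed widely in level. Gly-GCC held 67.0% of the counts of the 43 genes, Glu-TTC 10.9%, Gly-CCC 9.77%, Glu-CTC 9.13% and Gly-TCC 3.24%. Since 42 of the 43 entries were 74 or 75 bases long, levels are nearly per length. The summed level of the control group was 58246 ± 486 CPM for Gly-GCC, 9923 ± 523 for Glu-TTC, 8154 ± 181 for Glu-CTC, 7934 ± 1396 for Gly-CCC and 3005 ± 458 for Gly-TCC (SD, n = 3). Gly-GCC stood above and Gly-TCC below every other family in all 9 libraries. The 3 families between them were close, and control libraries of Glu-CTC (7945 to 8258 CPM) and Gly-CCC (6378 to 9076 CPM) overlapped.

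**Figure D1:**
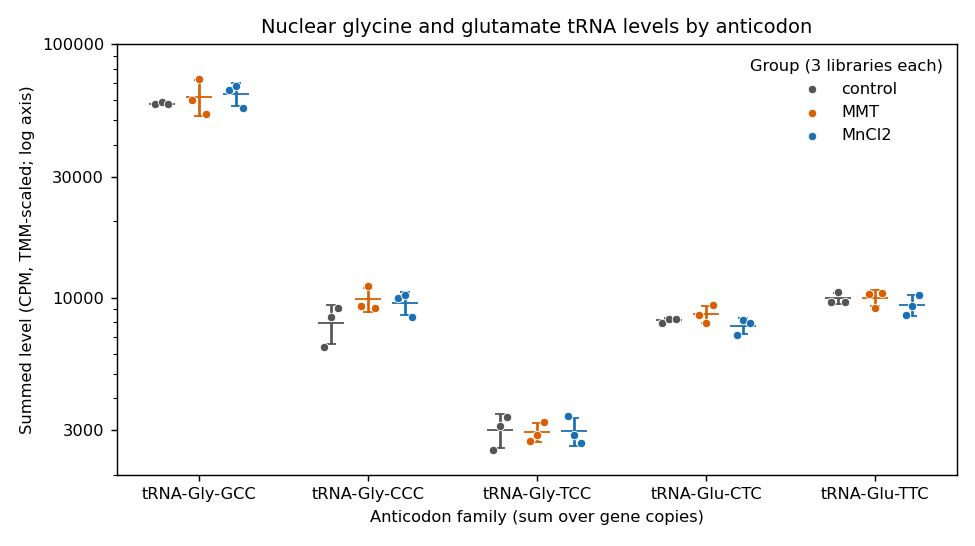
Summed level of each anticodon family in CPM scaled by TMM (log axis) in 3 control, 3 MMT and 3 MnCl2 libraries. Points are libraries, lines the mean and bars the SD. Gly-GCC is highest and Gly-TCC lowest. The groups overlap except in Gly-CCC, where the MMT libraries (9116 to 11073 CPM) lie just above control (6378 to 9076 CPM). Nothing is read from this separation.

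No family differed between the groups beyond the spread of the libraries, by edgeR's quasi-likelihood test with Benjamini-Hochberg adjustment over 755 rows. At an unadjusted p under 0.05 the test also gave 0 families in each comparison, beside 1.46% of all rows for MMT against control, 3.31% for MnCl2 against control and 1.59% for MMT against MnCl2. Gly-GCC, which reads the glycine codons GGC and GGU, measured 57882, 58797 and 58058 CPM in the control libraries. It measured 60232, 72885 and 53092 CPM in MMT and 65652, 68526 and 55935 CPM in MnCl2. The control libraries lay close together and both treated groups reached above and below them. The log2 fold change was 0.09 (SE 0.15, adjusted p = 1.00) for MMT against control and 0.12 (SE 0.15, adjusted p = 0.931) for MnCl2 against control. With 1 copy per distinct sequence in place of the sum over copies, both turned negative, at -0.07 and -0.06.

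Gly-CCC, which reads GGG, had the largest log2 differences from control among the 5 families. Its control libraries measured 6378, 8348 and 9076 CPM. The MMT libraries measured 9295, 11073 and 9116 CPM, and the MnCl2 libraries 9957, 10208 and 8402 CPM. All 3 MMT libraries lay above the highest control library, by 9116 beside 9076 CPM at the nearest, while MnCl2 3 lay within the control range. Among single entries, 1.8% were separated in this way. The share of the rows with summed tRNA genes was not counted, and nothing is read from the separation. The log2 fold change was 0.31 (SE 0.16, unadjusted p = 0.0871, adjusted p = 1.00) for MMT and 0.26 (SE 0.16, unadjusted p = 0.138, adjusted p = 0.921) for MnCl2. Both comparisons use the same 3 control libraries, so their likeness is not independent, and control 1 was the lowest of all 9. Without control 1 the values were 0.18 and 0.13. Of the 84237 counts of the family, 46358 were of 1 gene, Gly-CCC 4358. This gene shares its first 32 bases with Gly-GCC type 1, so reads that end before the anticodon need not come from a tRNA that reads GGG. The other Gly-CCC genes had log2 fold changes of -0.04 to 0.09 for MMT and -0.20 to -0.06 for MnCl2. For MnCl2 these genes thus had the opposite sign to the family sum.

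Gly-TCC, which reads GGA, averaged 3005 ± 458 CPM in control libraries, 2946 ± 258 CPM after MMT and 2979 ± 376 CPM after MnCl2, with log2 fold changes of -0.03 and -0.01 against control. Glu-CTC, which reads the glutamate codon GAG, averaged 8154 ± 181, 8596 ± 687 and 7741 ± 542 CPM in the same order (SD, n = 3 in each group). Its log2 fold change was 0.08 (SE 0.13) for MMT, -0.07 (SE 0.13) for MnCl2 and 0.15 (SE 0.13) for MMT against MnCl2. Glu-TTC, which reads GAA, averaged 9923 ± 523, 9983 ± 744 and 9337 ± 874 CPM, with log2 fold changes of 0.01 for MMT and -0.09 for MnCl2. The lowest adjusted p of these 3 families was 0.942, and the adjusted p of MMT against MnCl2 was 0.998 in all 5 families. With SEs of 0.13 to 0.16 on the log2 scale, small changes in a family were not detectable at this depth and number of libraries.

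Shares of counts, which need no scaling factor, gave the same picture. Gly-CCC held 11.4% ± 1.70 of glycine tRNA counts in control, 13.2% ± 0.650 in MMT and 12.6% ± 0.0470 in MnCl2 (SD, n = 3). Glycine held 19.4% ± 1.18, 20.7% ± 2.90 and 22.1% ± 2.12 of nuclear tRNA counts in the same order, and glutamate 5.06% ± 0.204, 5.14% ± 0.418 and 4.98% ± 0.397. Glu-CTC held 45.1% ± 1.14, 46.3% ± 1.04 and 45.4% ± 1.58 of glutamate tRNA counts. The 18 tests of shares (exact permutation, two-sided, 20 arrangements and so no p below 0.1) gave adjusted p-values of 0.9 to 1. The lowest raw p was 0.1, for the Gly-CCC share of glycine counts in MMT against MnCl2.

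Gene by gene, edgeR called 0 of the 43 genes in any comparison at an adjusted p under 0.05, and 0% of all 1113 entries in each. DESeq2 also called 0. For MMT against control, 0 members had an unadjusted p under 0.05 in edgeR (all entries 0.18% higher and 1.98% lower), and DESeq2 gave 1 higher and 1 lower (all entries 0.270% and 1.80%). For MnCl2 against control, 1 member was lower at that level (all entries 3.14%) and 0 were higher (all entries 1.44%), while DESeq2 gave 1 higher and 3 lower (all entries 1.44% and 4.76%). For MMT against MnCl2, edgeR gave 0 (all entries 1.35% higher and 0.629% lower) and DESeq2 1 higher and 0 lower (all entries 2.61% and 0.449%). A single gene is 2.33% of the 43, and nothing is read from counts this small.

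Counted over the whole set, the median log2 fold change of the 43 genes was 0.06 for MMT against control, beside 0.01 for all entries. It was -0.03 for MnCl2 against control, beside 0.06, and 0.06 for MMT against MnCl2, beside -0.06. The fold change was above 0 in 26, 15 and 28 of the 43 genes in these 3 comparisons, beside 53.1%, 57.3% and 41.9% of all entries. Among the 365 other nuclear tRNA genes it was above 0 in 169, 123 and 213, with medians of -0.02, -0.08 and 0.05, so that in the last 2 comparisons both medians lay on the same side of 0. The sign of the member median depended on the setting. With TMM factors from nuclear tRNA genes alone it was 0.035 for MnCl2 against control and -0.019 for MMT against MnCl2, and without MMT 3 it was -0.023 for MMT against control. The 8 Glu-CTC genes all had values below 0 in MnCl2 against control (-0.20 to -0.02) and above 0 in MMT against MnCl2 (0.10 to 0.22), but 6 of them share 1 sequence and none passed a test. The 2 comparisons share the MnCl2 libraries.

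Groups that did not overlap were as rare among the members as in the table. For MMT against control, 1 gene lay wholly higher (all entries 1.8%) and 0 wholly lower (all entries 2.79%). The gene was Glu-CTC 11803, at 1115 to 1288 CPM in MMT and 1078 to 1105 CPM in control. For MnCl2 against control, Gly-GCC 3490 lay wholly higher (all entries 4.76%), at 6860.0 to 8354 CPM beside 6161 to 6825 CPM, and Glu-CTC 7561 wholly lower (all entries 4.94%), at 999.9 to 1096 CPM beside 1119.6 to 1187 CPM. For MMT against MnCl2, 2 genes lay wholly higher (all entries 4.31%) and 0 wholly lower (all entries 4.76%). These were Glu-CTC 7561, at 1155 to 1272 CPM in MMT, and Gly-CCC 7585, at 765 to 799 CPM in MMT and 679 to 751 CPM in MnCl2. Glu-CTC 11803 and Gly-CCC 7585, and Gly-GCC 2377 below, were named after their values were seen. None of these 5 differences passed the adjusted threshold.

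**Figure D2:**
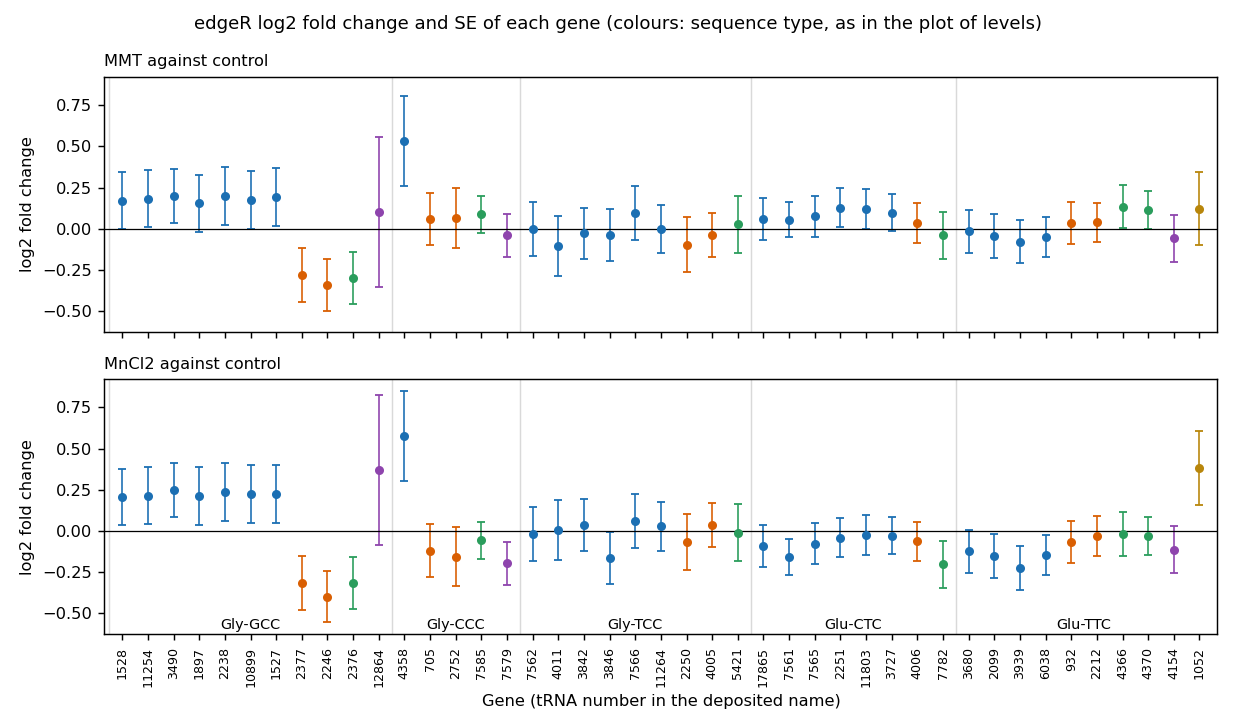
Log2 fold change of each of the 43 genes from edgeR, with its SE, for MMT (top) and MnCl2 (bottom) against the same control libraries, ordered by anticodon and coloured by sequence type. Gly-GCC types 2 and 3 sit below 0 and Gly-CCC 4358 above 0 in both panels; no gene passed the adjusted threshold.

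Gly-CCC 4358 (chr2:217947735-217947805, plus strand) was the only copy of Gly-CCC type 1 and had the highest fold change of the set in both comparisons with control. Its level was 2500.0, 4080.3 and 5278 CPM in control 1 to 3. It was 5238, 7531 and 4349 CPM in the MMT libraries and 5994, 6644 and 5026 CPM in the MnCl2 libraries. Control 1 was the lowest and MMT 2 the highest, and both treated groups overlapped control. The log2 fold change was 0.53 (SE 0.27, unadjusted p = 0.0788) for MMT and 0.58 (SE 0.27, unadjusted p = 0.0593) for MnCl2, with adjusted p-values of 1.00 and 0.843. Without control 1 the values were 0.29 and 0.33, and without control 3 they were 0.81 and 0.78.

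Gly-GCC 2246 (chr13:94080602-94080672, plus strand), 1 of 2 copies of Gly-GCC type 2, had the lowest fold change of the set in the same comparisons. Its level was 4874, 4255 and 3242 CPM in control, 3297, 3154 and 3314 CPM in MMT and 3284, 3126 and 2986 CPM in MnCl2. Control 1 and control 2 stood above all 6 treated libraries, while control 3 lay among them. The log2 fold change was -0.34 (SE 0.16, unadjusted p = 0.0515, adjusted p = 1.00) for MMT and -0.40 (SE 0.16, unadjusted p = 0.0276, adjusted p = 0.843) for MnCl2. Without control 1 these were -0.20 and -0.26, and without control 3 they were -0.48 and -0.61.

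The other copy of type 2 and the single copy of type 3, which are the neighbouring genes Gly-GCC 2377 and Gly-GCC 2376 on chromosome 13, 250 bases apart, had like values. Gly-GCC 2376 (chr13:95723974-95724044, plus strand) measured 4960.5, 4239 and 3275 CPM in control, 3422, 3281 and 3449 CPM in MMT and 3337, 3398 and 3288 CPM in MnCl2. Its log2 fold change was -0.30 (SE 0.16) for MMT and -0.32 (SE 0.16) for MnCl2, with adjusted p-values of 1.00 and 0.843. Control 1 and control 2 were high here too, while control 3 lay just below all 6 treated libraries.

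The 7 genes of Gly-GCC type 1 had values of the other sign. Gly-GCC 1528 (chr19:51843600-51843670, plus strand), its most abundant copy, measured 6276, 6630.2 and 6929 CPM in control. It measured 7119.6, 9030.4 and 6186 CPM in MMT and 7895, 8348 and 6663 CPM in MnCl2. Over the 7 copies the log2 fold changes were 0.15 to 0.20 for MMT and 0.21 to 0.25 for MnCl2, led in both by Gly-GCC 3490 (chr19:54011206-54011276, minus strand; 0.20 and 0.25, SE 0.17 in each). Identical copies are not independent measurements, and no copy passed a test.

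Copies that share a sequence cannot be told apart by a read, and their counts were nearly equal. In the 9 types with 2 or more copies, which hold 33 genes, total counts differed by at most 1.05 times between copies. Within a library, the SD between identical copies was divided by the square root of their mean count. It had a median of 0.829 over 81 sets and ranged from 0.0181 to 2.77. For counts placed at random the square of this ratio averages about 1. Its median lies below 1, most of all with 2 copies, so the median found is not read as extra evenness. The 7 copies of Gly-GCC type 1 had 10918 to 11289 counts in control 1 and 4491 to 4637 in control 3. How the authors placed reads that fit several genes is not given in the sources used here.

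**Figure D3:**
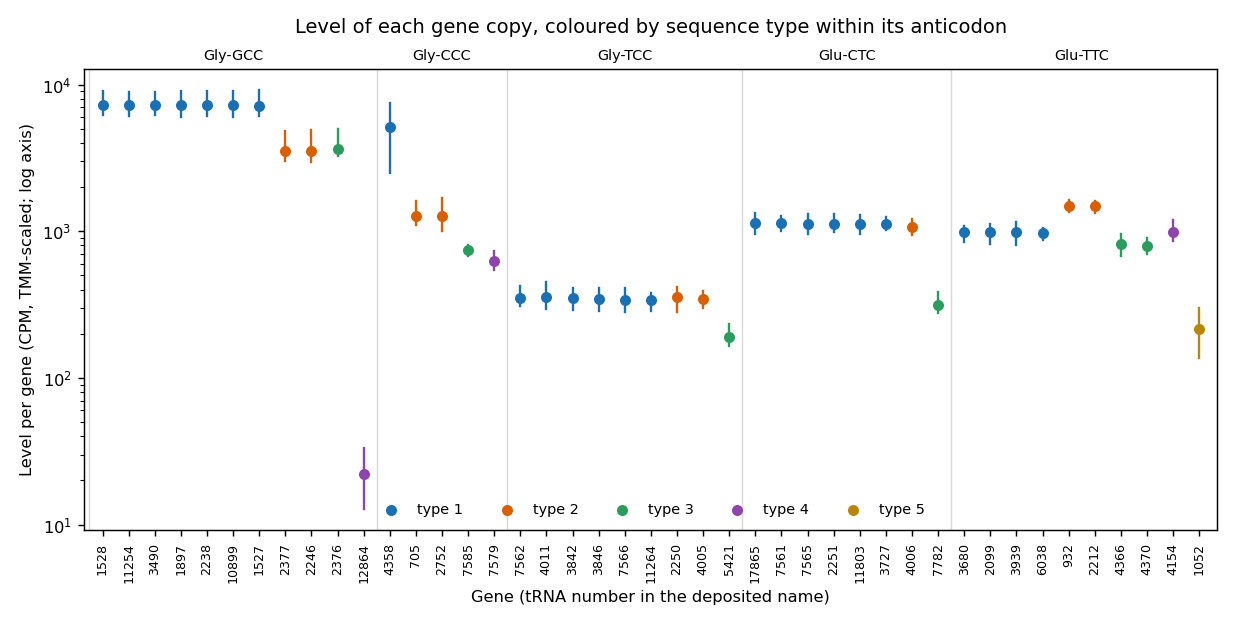
Level of each of the 43 genes in CPM scaled by TMM (log axis), grouped by anticodon and coloured by sequence type; points are the mean of the 9 libraries and bars run from the lowest to the highest library. Copies of 1 sequence sit at nearly 1 level, Gly-GCC type 1 is highest and Gly-GCC 12864 lowest, and some types of 1 anticodon, such as Gly-TCC types 1 and 2, sit at the same height.

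Several types of the same anticodon differed in level. Gly-GCC type 1 had 67328 counts per copy, Gly-GCC type 2 had 34834 and type 3 had 35936. The sequences printed above show that types 2 and 3, which differ at base 46 alone, share the first 45 bases. Both part from type 1 at base 5 and also differ from it at base 66. The ratio of type 1 to type 2 ran from 1.27 in control 1 to 2.82 in MMT 2. The ratio of type 2 to type 3 stayed between 0.912 and 0.998 in all 9 libraries. The first 29 to 31 bases of types 2 and 3 also had piRNA entries of their own, described below. The largest, pir-64143, held 24791 counts, while no piRNA entry lay whole within type 1. The part of these entries in the ratios to type 1 was not tested.

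Among Gly-CCC genes, type 1 had 46358 counts and type 4 (Gly-CCC 7579, chr2:218050687-218050757, minus strand) had 5963. The ratio of the 2 ran from 4.34 in control 1 to 12.1 in MnCl2 2, although they differ only at bases 15 and 43. Gly-CCC type 1 shares its first 32 bases with Gly-GCC type 1, from which a read that ends before the anticodon cannot be told apart. Gly-GCC type 1 had 1.20 to 2.47 times the counts per copy of Gly-CCC type 1. The highest ratio was in control 1, and the other 8 libraries lay at 1.61 or below.

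The 30 bases at the 5′ end gave 14 distinct sequences over the 43 genes, and none of them began another nuclear tRNA entry. The end shared by the 7 genes of Gly-GCC type 1 and by Gly-CCC 4358 carried 60.1% of the counts of the set. The end shared by Gly-GCC types 2 and 3 (3 genes) carried 12.3%, and that of Glu-CTC type 1 (6 genes) 7.58%. The end shared with Gly-CCC 4358 was the only one of the 14 that belonged to 2 anticodons.

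Among glutamate genes, Glu-CTC type 1 had 10895 counts per copy and Glu-CTC type 3 (Glu-CTC 7782, chr4:142340090-142340161, minus strand) had 2968. Glu-TTC type 2 had 14332 counts per copy, beside 9552 for type 1 and 9609 for type 4. Type 4 shares its first 65 bases with type 2 and its last 69 with type 1. Its level was near that of type 1, the type with the same 3′ part. How reads in the shared stretches were placed is not given, and the part of this placement in the levels was not tested. The ratio of type 2 to type 4 ran from 1.34 to 1.60 and that of type 1 to type 4 from 0.932 to 1.05.

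Glu-TTC type 5 (Glu-TTC 1052, chr16:35939543-35939614, plus strand) was the least abundant glutamate sequence, with 1966 counts. It measured 136, 210.1 and 229 CPM in control, 215, 238 and 169.7 CPM in MMT and 239, 299 and 206 CPM in MnCl2, and the groups overlapped. Its log2 fold change was 0.38 (SE 0.22, unadjusted p = 0.113) for MnCl2 against control and -0.26 (SE 0.22) for MMT against MnCl2, and neither passed the adjusted threshold. The first was 0.18 without control 1 and 0.22 without MnCl2 2, and the second was -0.13 without MMT 3 and -0.10 without MnCl2 2.

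Glu-CTC 7561 had the lowest unadjusted p of the set for MMT against MnCl2. It measured 1155, 1193 and 1272 CPM in MMT and 999.9, 1096 and 1022 CPM in MnCl2, so the groups did not overlap. The log2 fold change was 0.22 (SE 0.11, unadjusted p = 0.0737, adjusted p = 0.981). Glu-CTC 2251, a copy of the same sequence on chromosome 13, had 0.17 (SE 0.12), and its groups overlapped.

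Gly-TCC genes lay lower than all others but 3, Glu-CTC 7782, Glu-TTC 1052 and Gly-GCC 12864, which fell among or under them. Gly-TCC type 1 had 3254 counts per copy and type 2, which differs by G22A, had 3290.0. Gly-TCC type 3 (Gly-TCC 5421, chr13:52755742-52755813, minus strand) differs from type 1 by C2T, C55T and C62T and had 1815 counts. Gly-TCC 7562, the most abundant copy of type 1, measured 307, 349 and 407 CPM in control, 342, 324 and 393 CPM in MMT and 424, 316 and 309 CPM in MnCl2. The 3 groups covered the same range, and Gly-TCC 4011 had the lowest fold change of the family in MMT against MnCl2, at -0.11 (SE 0.18).

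Gly-GCC 12864 (chr5:13801746-13801822, minus strand) stood apart from the other glycine genes. Its sequence was 80 bases long and it had 201 counts over all 9 libraries, or 19.8 ± 6.52 CPM in control libraries, 21.4 ± 8.67 CPM after MMT and 25.3 ± 6.87 CPM after MnCl2 (SD, n = 3). It shared 16 consecutive bases with none of the other 42 genes and with 71 other nuclear tRNA genes, among them 38 for alanine and 20 for proline. At 13 to 33 CPM, differences between the groups were not detectable.

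The make-up of 2 glycine anticodons, and the glycine share of tRNA counts, followed the total count of a library in rank. No Pearson correlation of these measures passed the adjusted threshold. The shares of single types were chosen after their values were seen. They are shares of tRNA entries and leave out the 5′ pieces of types 2 and 3 of Gly-GCC that were listed as piRNAs. Gly-GCC types 2 and 3, the types with G at base 5, held 25.3%, 21.5% and 16.6% of Gly-GCC counts in control, 16.8%, 13.3% and 19.0% in MMT and 15.2%, 14.4% and 16.6% in MnCl2. Gly-CCC 4358 held 39.2%, 48.9% and 58.2% of Gly-CCC counts in control, 56.4%, 68.0% and 47.7% in MMT and 60.2%, 65.1% and 59.8% in MnCl2. Within each of the 3 groups, the library with the largest total had the highest share of Gly-GCC types 2 and 3 and the lowest share of Gly-CCC 4358. No group difference in these shares was found (exact two-sided permutation tests, adjusted p = 0.667 to 1 over 12 tests), and the lowest raw p, the smallest the design allows, was 0.1 for Gly-CCC 4358 in MnCl2 against control.

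Against log2 total count over the 9 libraries, the share of Gly-GCC types 2 and 3 had Pearson's r = 0.745 and Spearman's rho = 0.833 (exact permutation, adjusted p = 0.0778 and 0.0380 over 11 relations). Gly-CCC 4358 had r = -0.787 and rho = -0.800 (exact permutation, adjusted p = 0.0657 and 0.0380). The share of Gly-CCC type 2 had r = 0.838 and rho = 0.867 (exact permutation, adjusted p = 0.05 and 0.0380). With the 2 most extreme totals (control 1 and control 3) left out, r was 0.607 (raw exact p = 0.144), -0.762 (raw exact p = 0.0435) and 0.786 (raw exact p = 0.0333), so the first rests partly on those 2 libraries. The glycine share of nuclear tRNA counts had r = -0.686 and rho = -0.817 (exact permutation, adjusted p = 0.101 and 0.0380), and r was -0.830 (raw exact p = 0.0133) without those 2 libraries. For the glutamate share r was 0.243 over all 9 libraries and 0.899 without those 2 (raw exact p = 0.00754). For the summed levels of Glu-CTC and Glu-TTC r was 0.411 and 0.470 over all 9, and 0.899 and 0.801 without those 2 (raw exact p = 0.00635 and 0.0284). Over all 9 libraries these glutamate relations did not pass the adjusted threshold (exact permutation, adjusted p of r = 0.529, 0.294 and 0.279). Without those 2 libraries they rest on 7 libraries and raw p-values. Whether relations to total count were particular to glycine was thus not settled. The shares are parts of the same totals and are not independent of each other. In a fit with total count as a covariate, the log2 fold change of Gly-CCC 4358 was 0.61 (SE 0.13, adjusted p = 0.179) for MMT and 0.48 (SE 0.13, adjusted p = 0.399) for MnCl2, and that of Gly-GCC 2246 was -0.34 and -0.32.

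**Figure D4:**
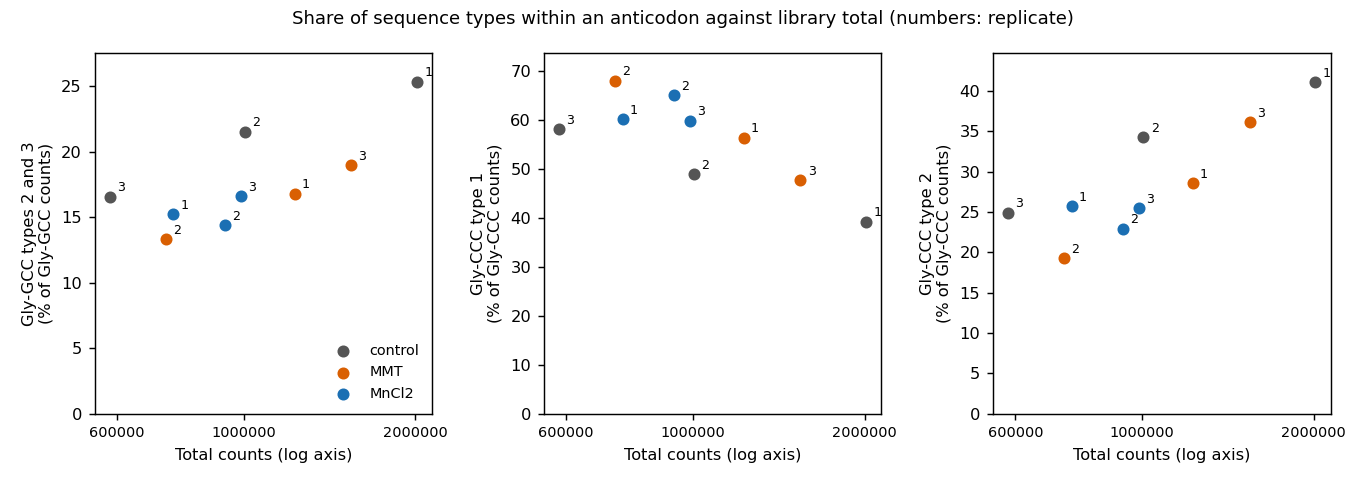
Share of Gly-GCC types 2 and 3 among Gly-GCC counts (left), of Gly-CCC type 1 (gene 4358, middle) and of Gly-CCC type 2 (right) among Gly-CCC counts, against the total count of a library on a log axis. Points are the 9 libraries with their replicate number; control 1, with 2012769 counts, has the highest left and right shares and the lowest middle share.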

How the data were processed

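Small RNA of rat striatum was sequenced in 9 libraries (TRIzol extraction, a gel band of 15 to 45 nucleotides, QIAseq miRNA kit, per the labels' protocols). The authors deposited raw counts per entry, as the unequal totals of whole numbers show. Trimmomatic (version not given) and the rn6 build are named per the submitters' processing notes. How reads were aligned, placed among several fitting entries or collapsed by molecular identifier is not given in the sources used here. Groups and replicate numbers came from the sample titles. Coordinates and sequences are those of the deposited entries and were not checked against a genome. The sequence of Glu-CTC genes is not reported here.

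The test was edgeR's quasi-likelihood F test (version 4.0.16, R 4.3.3), two-sided, with robust weights, TMM factors and the filterByExpr minimum. A single model held all 9 libraries. Benjamini-Hochberg adjustment at 0.05 ran over all 1113 entries, or over 755 rows with nuclear tRNA genes summed by anticodon. The biological coefficient of variation was 0.279. The SE is the size of the log2 fold change divided by the square root of F. For shares the test was an exact permutation of the library labels, two-sided. Named are, per anticodon, the top copy of the most and the least abundant sequence and, per comparison, up to 2 members of lowest p in each direction. The members, lists and tests were chosen with earlier results of these data known.

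Alternatives were DESeq2 1.42.0, other scalings and filters, the 2 compared groups alone, no robust weights, the replicate number as a block, total count as a covariate, 1 copy per sequence and each library left out. Scripts were tested on simulated data. Python 3.11.15 was used for the rest (pandas 2.3.3, numpy 2.4.6, matplotlib 3.10.9, scipy 1.17.1), and limma 3.58.1 was loaded with edgeR.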

Additional observations from a re-analysis of the deposited data

How the results depend on the processing

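No member was called in any of 19 alternatives of each comparison. The lowest adjusted p was 0.179 for MMT against control (total count as a covariate), 0.175 for MnCl2 against control (without control 3) and 0.569 for MMT against MnCl2. Over 315 alternatives of the anticodon sums 45 changed sign, and their lowest adjusted p was 0.476. At an unadjusted p under 0.05, MMT against control had 1 higher and 3 lower members with total count as a covariate (all entries 2.34% and 2.96%). Without control 3, both comparisons with control had 1 higher and 3 lower (all entries 1.24% and 3.28% for MMT, 5.58% and 8.33% for MnCl2). With total-count scaling, both had 0 higher and 3 lower (all entries 0% and 2.88% for MMT, 1.53% and 4.40% for MnCl2). Leaving out MMT 2 gave 2 higher and 0 lower in MMT against MnCl2 (all entries 4.25% and 1.59%). Sums, shares and named genes that changed sign are given below. The median over the 43 genes also changed sign, to 0.035 (MnCl2 against control) and -0.019 (MMT against MnCl2) with TMM on nuclear tRNA genes alone, and to -0.023 (MMT against control) without MMT 3. The causes were not tested. Scaling on nuclear tRNA genes alone moved the median of all entries to 0.12 for MnCl2 against control and -0.13 for MMT against MnCl2.

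For MMT against control, Gly-GCC became -0.068 with 1 copy per sequence and Gly-TCC 0.00051 with total count as a covariate. Glu-TTC became -0.036 with total-count scaling, -0.0016 without the low-count filter, -0.022 with the 2 groups alone and -0.025 with TMM on the summed table. For MnCl2 against control, Gly-GCC became -0.060 with 1 copy per sequence and Gly-TCC 0.057 with TMM on nuclear tRNA genes. For MMT against MnCl2, Gly-GCC became 0.0145 with RLE scaling, 0.027 without the filter, 0.0070 with the covariate, 0.034 with the 2 groups alone, 0.0145 with DESeq2 and 0.028 with TMM on the summed table. Gly-TCC became 0.033, 0.052, 0.050, 0.051, 0.034 and 0.048 in the same order, and Gly-CCC -0.026 with TMM on nuclear tRNA genes. With 1 copy per sequence, the difference in Gly-TCC percent of Gly (MMT against MnCl2) became -0.0135, that in Glu-CTC percent of Glu (MnCl2 against control) -0.331 and that in Glu percent of nuclear tRNA (MnCl2 against control) 0.0985 percentage points.

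Leaving out 1 library at a time, the log2 fold change for MMT against control ran from -0.025 to 0.19 for Gly-GCC, -0.14 to 0.083 for Gly-TCC and -0.030 to 0.087 for Glu-TTC. For MnCl2 against control Gly-TCC ran from -0.13 to 0.052. For MMT against MnCl2 the range was -0.12 to 0.070 for Gly-GCC, -0.042 to 0.12 for Gly-CCC, -0.092 to 0.096 for Gly-TCC and -0.22 to 0.029 for the gene Gly-TCC 4011. In percentage points, Gly-GCC percent of Gly ran from -1.68 to 0.516 (MnCl2 against control) and -1.27 to 0.133 (MMT against MnCl2), and Gly-TCC percent of Gly from -0.788 to 0.0266 (MMT against control) and -0.390 to 0.424 (MMT against MnCl2). Gly percent of nuclear tRNA ran from -0.290 to 2.51 for MMT against control. Glu percent of nuclear tRNA ran from -0.112 to 0.305 (MMT against control), -0.262 to 0.132 (MnCl2 against control) and -0.0447 to 0.385 (MMT against MnCl2), and Glu-CTC percent of Glu from -0.490 to 1.08 (MnCl2 against control). For MMT against MnCl2, among shares chosen after their values were seen, Gly-CCC 4358 ran from -9.66 to 0.488, Gly-CCC type 2 from -0.794 to 7.65, Gly-GCC types 2 and 3 from -0.361 to 2.47 and Glu-TTC types 3 and 5 from -0.766 to 0.979.

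Equal replicate numbers showed no clear pairing of the libraries. Of 9 same-numbered pairs, 4 had correlated deviations above 0.1 (range -0.666 to 0.493), and 3 of 9 libraries correlated best with their own number. Deviations from a mean of 3 libraries depend on each other, so this check cannot decide whether equal numbers mark a shared batch. With the replicate block, 0 members were called, and Gly-CCC had a log2 fold change of 0.31 for MMT and 0.27 for MnCl2 against control.

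Totals of 583045 to 2012769 counts and 3 libraries per group limit the precision. Counts are of fragments whose placement among identical genes is not known, so values of single copies of a sequence carry no more than the value of the sequence.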

Other observations

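Some fragments of these tRNAs were listed in the table as piRNAs. Of 585 piRNA entries, 28 shared 16 consecutive bases with a glycine or glutamate tRNA gene, and 20 of these shared none with another nuclear tRNA gene. The 20 entries held 43.7% of all piRNA counts. In 13 of them the whole sequence lay within a member, and all 13 began at base 1.

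The 3 most abundant, pir-64143, pir-64142 and pir-64141 of the tRNA class of entries, were the first 31, 30 and 29 bases of Gly-GCC types 2 and 3. The longest is shown as an example of such a 5′ piece, with the base that parts it from Gly-GCC type 1 in capitals.
pir-64143: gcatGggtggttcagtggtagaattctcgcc
The entry measured 2810.2, 1995 and 2362 CPM in control, 2896, 2948 and 2553 CPM in MMT and 2537, 2495 and 2522 CPM in MnCl2, and control overlapped both treated groups. The log2 fold change was 0.23 (SE 0.15) for MMT and 0.08 (SE 0.15) for MnCl2. For pir-64142 the values were 0.16 and -0.02, and for pir-64141 0.09 and -0.08. A second entry of the same sequence, listed under a piRNA cluster, had 3208 counts beside 24791, and its values were -0.09 and -0.22. Of the 16 entries tested, 7 had a log2 fold change above 0 for MMT against control (median -0.10), 3 for MnCl2 against control (median -0.29) and 14 for MMT against MnCl2 (median 0.17). Of all entries, 53.1%, 57.3% and 41.9% lay above 0 in the same order, with medians of 0.01, 0.06 and -0.06. Several of the 16 are nested pieces of the same 5′ end and are not independent, so nothing is read from these counts. Whether a fragment was counted in more than one entry is not given in the sources used here. Of the same 16 entries, 0 were called by edgeR in any comparison (lowest adjusted p = 0.843, for MnCl2 against control), and 1 had an unadjusted p under 0.05, in MnCl2 against control. This was the piRNA cluster entry of pir-64142, which was lower (log2 fold change -0.56, SE 0.22, unadjusted p = 0.0292, adjusted p = 0.843 by edgeR), beside 3.14% of all entries lower at that level.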
